A study of Rattus norvegicus with 16 samples.

Results

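Spliceosomal small nuclear RNA (snRNA) genes were among the places where SRF reads gathered in rat oligodendrocyte lineage cells. Of 848 consensus regions of SRF chromatin immunoprecipitation sequencing, 32 had an snRNA gene as the nearest annotated gene, with the gene start within 10000 bp and no IgG peak on the region. They were chosen by the presence of an SRF peak in at least 1 library and by this annotation. By gene name 7 of them belonged to U1, 15 to U2, 6 to U5 and 4 to U6, at 20 annotated genes on 9 chromosomes. The regions come from peaks called in the same libraries, so where they lie and where they were called is a description, without a test.

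The snRNAs U1, U2, U5 and U6 are among the RNA parts of the spliceosome, the complex that removes introns from pre-mRNA. U1 pairs with the 5′ splice site, U2 with the branch point, U5 holds the exon ends together and U6 takes part in catalysis. Genes for U1, U2 and U5 are transcribed by RNA polymerase II and end at a short 3′ box read by the Integrator complex, whereas U6 genes are transcribed by RNA polymerase III. All 4 exist as families of near-identical copies and pseudogenes, and a read from one copy can be placed on another, so each position below is uncertain to that extent. SRF (serum response factor) is a transcription factor known for binding near the starts of actin, cytoskeletal and immediate early genes.

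Primary wild-type oligodendrocyte precursor cells were purified from rat brain by immunopanning, a capture on antibody-coated dishes, and proliferated for 6 days. Oligodendrocytes (OL) were fixed on day 3 after a change to differentiation medium, and oligodendrocyte precursor cells (OPC) were fixed while still proliferating. SRF was immunoprecipitated in 3 OL libraries (replicates 1, 2 and 4) and 4 OPC libraries (replicates 1 to 4), next to 1 IgG library per stage and 7 inputs. Replicates were independent preparations, each divided between the stages, so a p-value measures the spread between preparations. By the numbers of the titles OPC replicate 3 has no OL partner here, and by those of the file names OPC replicate 4 has none. Chromatin data hold no marker expression, so the labelled stages could not be checked against marker genes.

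Depth went with stage. The OL libraries held 12103611, 2394854 and 3363937 tags (replicates 1, 2 and 4) and the OPC libraries 12401853, 20303444, 11713315 and 9054483 (replicates 1 to 4). Reads inside the 848 regions numbered 4472 to 26206 in OL and 23055 to 34273 in OPC. OL replicates 2 and 4 therefore contributed few reads to any 1 region, and depth and stage cannot be fully told apart. No IgG peak lay closer than 1390117 bp to an snRNA region, but the OL IgG library held 1551203 tags, against 11308414 in OPC.

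The snRNA regions lay downstream of the gene start. Of the 32 regions 31 (96.9%) had their centre downstream, with a median distance of 824.5 bp past the start, whereas 137 of 586 regions at protein-coding genes (23.4%) were downstream and their median lay at -94.5 bp. The 28 downstream regions within 2000 bp began 172 to 1255 bp past the start and ended 409 to 1645 bp past it. None of the 28 covered the start itself. The deposited annotation gave 25 of the 32 its transcript-end label, 6 its intergenic label and 1 its intron label. The distance of the regions from the transcript ends was not measured. Among the 18 regions at small nucleolar RNA genes, 17 were also downstream, at a median of 1698.5 bp.

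Peak summits, the point of highest pileup in each library's own peak, place the signal within these regions. The regions were merged from these same peaks, so a shared position was given in advance and is no separate support. A region called in several libraries also gives several summits. At genes whose strand could be worked out, 46 of 47 summits within 2000 bp lay downstream of the start, at a median of 806 bp. The median summit lay 857.5 bp past the start at U1, 607 bp at U2 and 792 bp at U5. A single summit was nearer than 200 bp. No U6 gene had a strand that could be resolved, so U6 is described by region centres only.

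**Figure D1:**
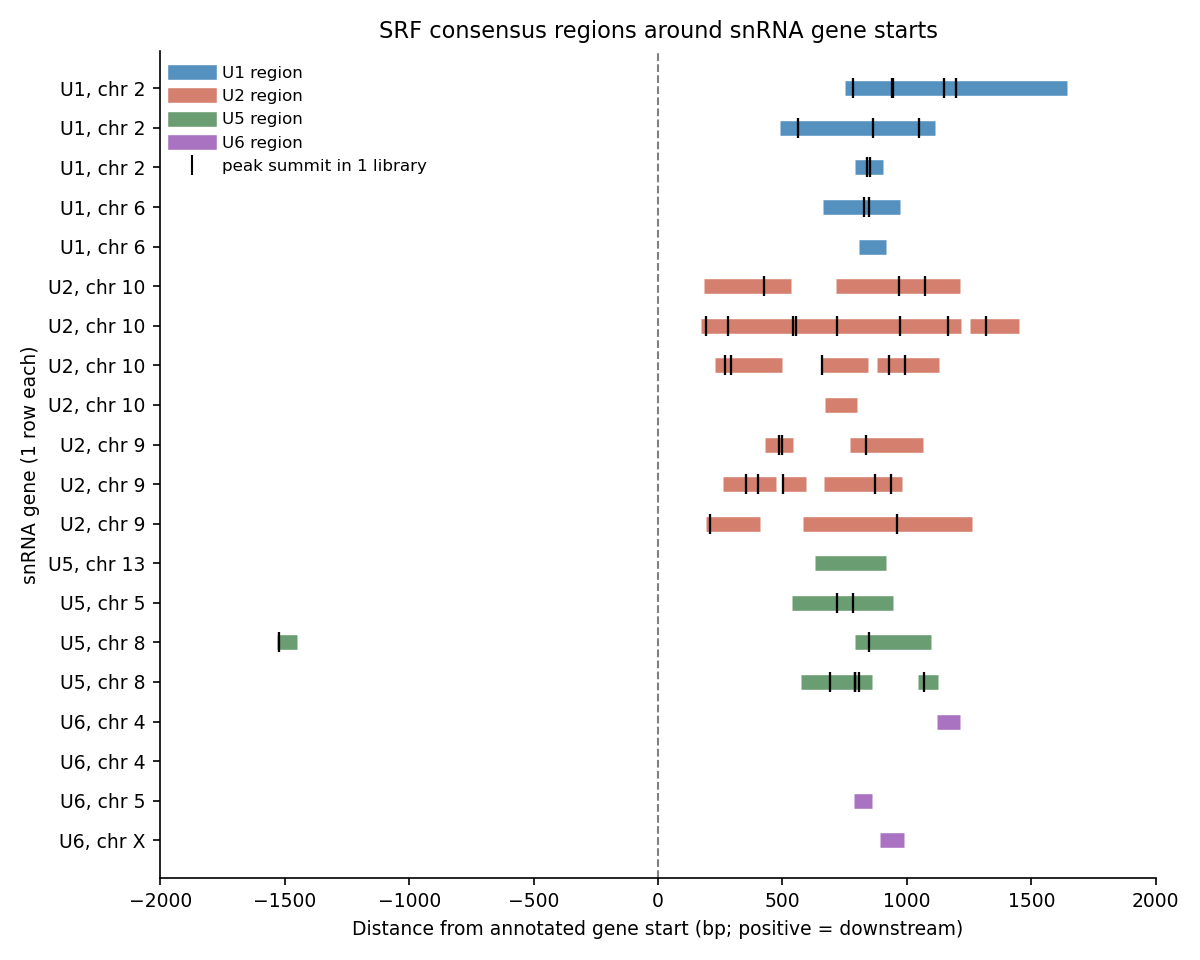
Consensus SRF regions within 2000 bp of each annotated snRNA gene start, 1 row per gene, with distance from the start in bp on the horizontal axis (positive is downstream). Bars are regions, black ticks are summits of single-library peaks at genes with a resolved strand; a U6 gene on chromosome 4 has its region 8206 bp past the start and an empty row, and 28 of the 29 regions shown lie to the right of the start.

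U2 genes carried the most regions. The 15 U2 regions fell on 7 genes in 3 clusters, where a cluster joins regions less than 100 kb apart, and all 15 were downstream by 301 to 1352 bp. Of the 7 genes 6 had 2 or 3 separate regions, the nearest beginning 172 to 431 bp past the start and the farthest ending 981 to 1449 bp past it. The longest was a region of 1048 bp (chromosome 10, 70489692 to 70490739, build Rnor_6.0) beginning 172 bp past its gene start. The remaining U2 clusters held 6 regions over 31.7 kb of chromosome 10 and 7 regions over 37.3 kb of chromosome 9.

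U1 regions lay on chromosomes 2 and 6. The chromosome 2 cluster spanned 105 kb with 5 regions at 3 annotated genes, and 2 of these regions lay far from the nearest annotated start, at 6488 and 9185 bp. The region at 9185 bp is the closest inside the distance limit of 10000 bp, and no snRNA region lay beyond it. The 5 other U1 regions had their centres 802 to 1198 bp past the start. U5 regions lay on chromosomes 5, 8 and 13, with centres 718 to 1085 bp past the start, except for 1 centred upstream, at -1491 bp (chromosome 8, 70700244 to 70700328). That exception sits between 2 U5 genes of the same strand. The 4 U6 regions were each alone, on chromosomes 4, 5 and X, and were short, at 72 to 99 bp.

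Peaks at these regions were called mostly in OPC. A region counts as called in a library when a peak of that library overlaps it. In OL replicates 1, 2 and 4 peaks were called at 4, 0 and 0 of the 32 regions, and in OPC replicates 1 to 4 at 13, 3, 9 and 27. Of the 32 regions 28 were called in OPC and in no OL library, 3 in both stages and 1, at U6, in OL alone. Of the 816 other regions 754 were called in OPC, 378 of them in both stages, and 62 in OL alone. Calls in at least 2 libraries were made at 15 regions (46.9%), compared with 461 of the 816 other regions (56.5%). OPC replicate 4 alone gave the call at 13 of the 32, and at 243 of the 816 other regions. The number of peaks overall followed neither depth nor stage strictly, from 47 to 436 in OL and from 232 to 714 in OPC.

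**Figure D2:**
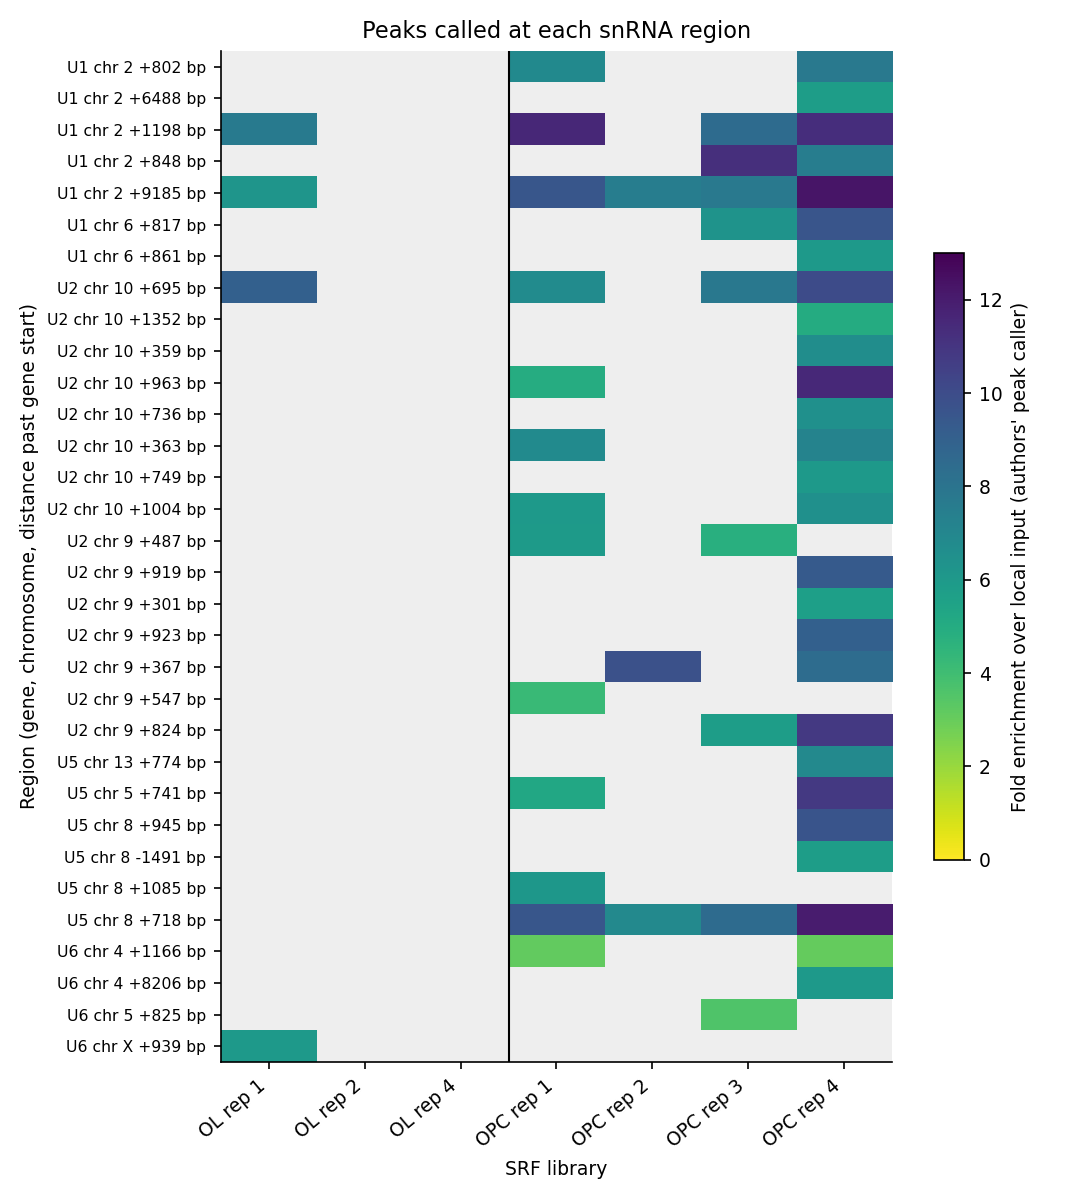
Peak calls at the 32 snRNA regions (rows, named by gene, chromosome and distance past the gene start) in the 7 SRF libraries (columns, OL left of the line and OPC right of it). Colour is the authors' fold enrichment over local input of the highest peak on the region and grey means no peak; OPC replicate 4 has the most filled cells, at 27, and OL replicates 2 and 4 have none.

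Enrichment at the called snRNA peaks was moderate. The median fold enrichment over local input, the authors' own value for each peak, was 6.24 for snRNA peaks in OL replicate 1 and 6.06, 7.49, 7.77 and 7.33 in OPC replicates 1 to 4. Peaks elsewhere in the same libraries had medians of 10.1 in OL replicate 1 and of 9.21, 8.62, 9.33 and 9.50 in OPC replicates 1 to 4. Reads per kilobase of region, normalised and averaged over the 7 libraries, had a median of 43.6 over the 28 regions of U1, U2 and U5 and of 73.1 over the 816 other regions. The U6 region on chromosome 4 (6879519 to 6879611) was far denser, at 985 per kilobase, although its peaks had fold enrichments of only 3.10 and 3.05.

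The share of SRF reads at U1, U2 and U5 was lower in OL than in OPC. Of every 1000 reads in all regions, the 28 regions of U1, U2 and U5 took 15.2, 9.39 and 13.9 in OL replicates 1, 2 and 4, and 29.9, 23.9, 26.6 and 28.4 in OPC replicates 1 to 4. All OL libraries lay below all OPC libraries, with means of 12.8 ± 3.05 in OL (SD, n = 3) and 27.2 ± 2.58 in OPC (SD, n = 4). This held for each gene name. U1 took 4.98 ± 0.83 in OL and 9.11 ± 0.95 in OPC, U2 took 5.94 ± 2.40 and 13.8 ± 1.31, and U5 took 1.91 ± 0.24 and 4.27 ± 0.42, each in reads per 1000 and in the same order of stages. At U6 the OL mean was the higher one, with 5.99 ± 1.76 in OL and 4.09 ± 0.68 in OPC, and its libraries overlapped. A pool of cells cannot tell fewer bound cells from less binding per cell. The 28 regions of U1, U2 and U5 were all called in an OPC library and 3 of them in an OL library. Reads summed over them therefore describe regions found mostly through OPC peaks, and the part of that choice in the difference was not tested.

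**Figure D3:**
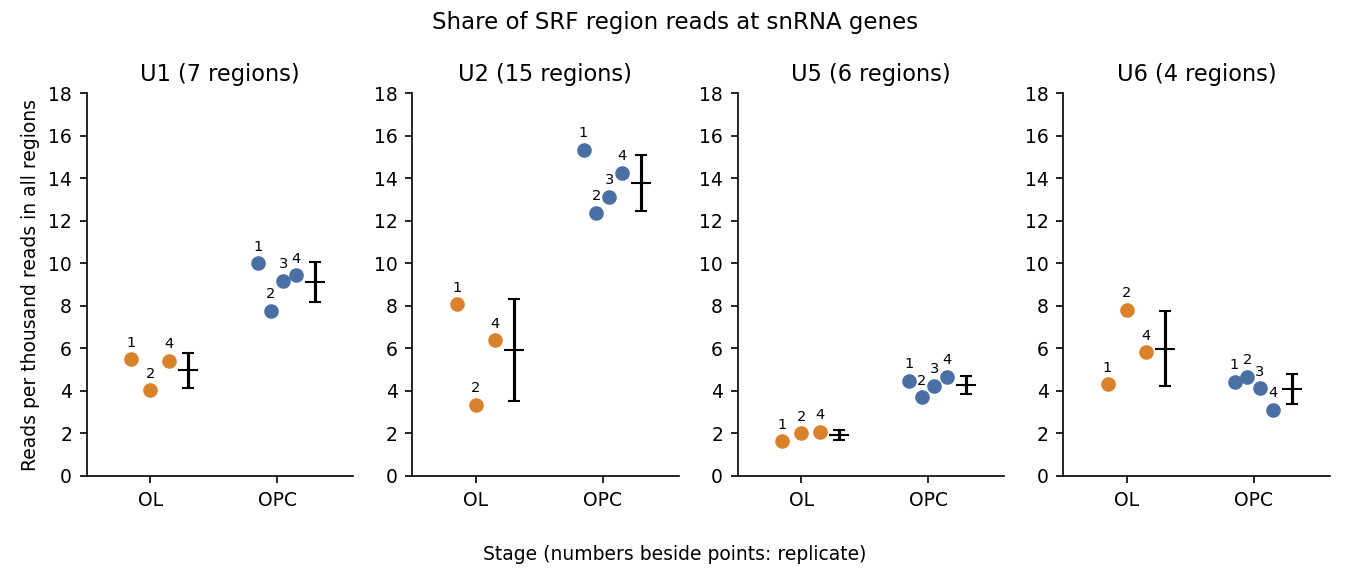
Reads at U1, U2, U5 and U6 regions per 1000 reads in all 848 regions, 1 panel per gene name, with 1 point per SRF library (OL left, OPC right, replicate number above the point) and the mean ± SD beside the points. The OL points lie below all OPC points for U1, U2 and U5, and overlap them for U6. All regions of U1, U2 and U5 were called in OPC and 3 of them in OL.

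Set against all tags of a library instead, the stages overlapped. The 28 regions of U1, U2 and U5 held 33.0, 17.5 and 29.7 reads per 1000000 tags in OL replicates 1, 2 and 4 and 63.5, 27.6, 52.3 and 107 in OPC replicates 1 to 4. Region by region, 6 of all 32 (18.8%) had every OL library below every OPC library on this scale, where 5.19% of all 848 regions did. The overlap of the sums came from OPC replicate 2, the deepest library, in which all 848 regions together also took the smallest share of tags, at 1158 reads per 1000000 tags. OL replicate 1 and OPC replicate 1 had near-equal depth and near-equal reads over all regions, at 26206 and 26362. Between these 2 libraries the 28 regions held 399 reads in OL and 787 in OPC. Fewer reads in OL were found at 26 of the 28 (92.9%), against 50.7% of all 848 regions. The 28 regions lie in 8 clusters and were all called in OPC, 3 of them also in OL. Their counts in this 1 pair of libraries are a description, without a test.

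Of the 32 regions 21 had at least 10 reads in at least 3 libraries and entered the comparison of OL with OPC by edgeR's quasi-likelihood test, fitted over 557 regions with Benjamini-Hochberg adjustment. The filter was met through 3 or more OPC libraries by 20 of the 21, while 1 had 10 reads in all 3 OL libraries. A region high in OL alone could therefore hardly enter, and counts of negative values among the tested regions describe members admitted mostly through OPC. Of the 21, 3 fell in OL at an adjusted p below 0.05 and 0 rose, where 1.8% of all tested regions fell and 0.359% rose. With replicate numbers as a block, which pairs both stages of a preparation, 0 of the 21 and 0 of all 557 regions passed by edgeR. DESeq2 called 4 lower and 0 higher, where 2.51% and 6.28% of all 557 regions were called lower and higher. It gave no adjusted p for 120 of the 557, snRNA regions among them, and these count here as not called. At an unadjusted p below 0.05 by edgeR 12 of the 21 were lower, where 10.2% of all tested regions were, and 0 were higher, where 11.7% were.

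Fitted log2 fold changes were negative at all 19 tested regions of U1, U2 and U5 and positive at both of U6, where 50.6% of all tested regions were negative. The median log2 fold change was -0.67 over 5 U1 regions, -1.03 over 10 U2 regions and -1.26 over 4 U5 regions, and 0.02 over the 536 other tested regions. Normalised reads in all OL libraries lay below all OPC libraries at 13 of the 21, where 13.5% of all tested regions did so. With no filter, all 32 regions could be fitted, and 27 of the 28 regions of U1, U2 and U5 were negative, with a median of -0.87. In that fit 5 snRNA regions fell and 1 rose by edgeR at an adjusted p below 0.05, where 1.65% of all 848 regions fell and 0.943% rose. The 28 regions of U1, U2 and U5 lie in 8 clusters, and some genes carry more than 1 region. Counts over them are therefore not counts of independent members and are a description, without a test.

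Being called in OPC alone already goes with lower reads in OL. Among 156 tested regions of other genes with calls in OPC only, the median log2 fold change was -0.36, 75.6% were negative and 2.56% fell at an adjusted p below 0.05. In that class the OL libraries all lay below the OPC libraries at 19.9%. The 16 tested regions of U1, U2 and U5 with calls in OPC only had a median of -1.03, 16 were negative and 3 fell. The 3 tested regions with calls in both stages had a median of -0.67, next to 0.10 over 365 other regions with calls in both stages. The part of this selection in the difference was not tested. Lower values were also found at small nucleolar RNA genes, where the 5 tested of 18 regions had a median of -1.39, 3 fell by edgeR at an adjusted p below 0.05 and 4 were lower at an unadjusted p below 0.05. No test set these against the snRNA regions.

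**Figure D4:**
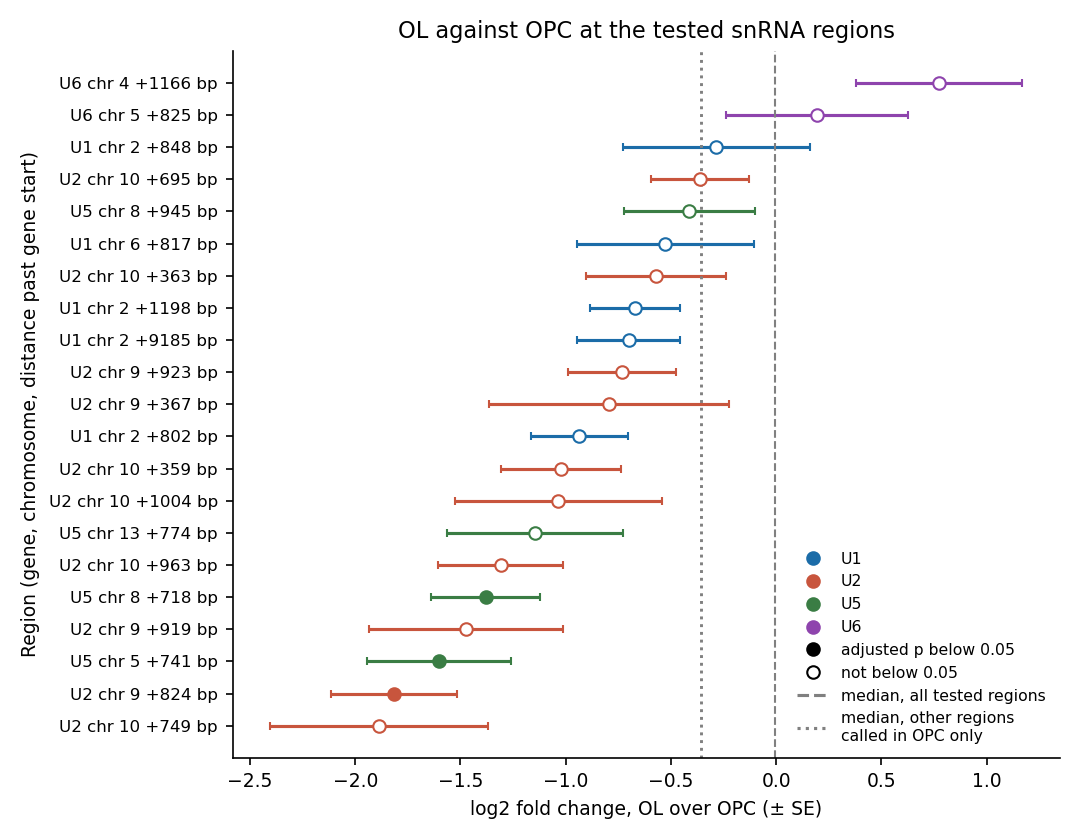
Log2 fold change of OL over OPC with its SE at the 21 tested snRNA regions, each row a region named by gene, chromosome and distance past the gene start. Filled points have an adjusted p below 0.05 (3 regions); the dashed line is the median of all 557 tested regions and the dotted line, at -0.36, that of other regions called in OPC only.

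Among the 3 regions that fell, the smallest p belonged to a U2 gene (ENSRNOG00000057887) on chromosome 9, at 79597529 to 79597843, centred 824 bp past the start. It held 7, 1 and 2 reads in OL replicates 1, 2 and 4 and 28, 22, 24 and 38 in OPC replicates 1 to 4. After scaling this was 5.62, 6.08 and 6.90 normalised reads in OL and 21.7, 19.9, 21.4 and 21.3 in OPC. The stages did not overlap, and the log2 fold change was -1.82 ± 0.30 (SE, adjusted p = 0.0165 by edgeR). This SE, like those below, was worked back from edgeR's test statistic, and DESeq2 gave a larger SE of 0.54 here. The same gene carried 2 more regions nearer its start, at 367 and 547 bp, where the stages overlapped.

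A U5 region on chromosome 8 (70701296 to 70701581, gene ENSRNOG00000060577) was centred 718 bp past the start and was the most widely called region of its family, in all 4 OPC libraries. Its normalised reads were 8.83, 12.2 and 10.4 in OL replicates 1, 2 and 4 and 24.8, 27.2, 24.1 and 24.1 in OPC replicates 1 to 4. Every OPC library stood above every OL library, and the log2 fold change was -1.38 ± 0.26 (SE, adjusted p = 0.0328 by edgeR). Its raw reads were 11, 2 and 3 in OL and 32, 30, 27 and 43 in OPC.

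The other U5 region that fell was on chromosome 5 (136058131 to 136058535, gene ENSRNOG00000059272), 741 bp past the start. It had 5.62, 6.08 and 13.8 normalised reads in OL replicates 1, 2 and 4 and 24.0, 20.8, 24.1 and 20.2 in OPC replicates 1 to 4, from 7, 1 and 4 raw reads in OL. Here too the stages did not overlap (log2 fold change -1.60 ± 0.34, SE, with an adjusted p of 0.0368 by edgeR). In the fit with replicate numbers as a block these 3 regions had edgeR adjusted p-values of 0.0774, 0.0795 and 0.101 at log2 fold changes of -1.83, -1.37 and -1.60. At an unadjusted p below 0.05 the blocked fit put 11 snRNA regions lower, where 8.98% of all tested regions were.

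The calls depended on single libraries. By edgeR 0 snRNA regions fell without OL replicate 1, the deepest OL library, without OPC replicate 4, or with libraries scaled to all tags, where 9, 11 and 6 were lower at an unadjusted p below 0.05. Of all tested regions 8.22%, 9.24% and 4.49% were lower by that measure in the same 3 fits. Without OPC replicate 1 or OPC replicate 2 a single snRNA region, that of the U2 gene, fell, where 0.583% and 0.75% of all tested regions did. When only regions called in at least 2 libraries were fitted, 5 snRNA regions fell, where 4.19% of all those tested did. Without OL replicate 1, 16 of the 18 tested regions of U1, U2 and U5 stayed negative, and a U1 region on chromosome 6 (75619301 to 75619611) had a log2 fold change of 0.18, against -0.53 with all libraries. The fold changes of the 3 regions that fell were negative in all 14 alternatives. They ran from -2.08 to -1.64 at U2 on chromosome 9, from -1.62 to -1.15 at U5 on chromosome 8 and from -1.98 to -0.98 at U5 on chromosome 5. Every OL library lay below every OPC library at these 3, so leaving libraries out could hardly turn the sign. Scaled to all tags their edgeR adjusted p-values were 0.507, 0.560 and 0.560 in the same order.

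The U2 regions with the most reads did not pass. The long region on chromosome 10 that begins 172 bp past the start had 69.0, 30.4 and 55.2 normalised reads in OL replicates 1, 2 and 4 and 87.5, 70.6, 68.7 and 66.2 in OPC replicates 1 to 4. It was called in 4 libraries, OL replicate 1 among them, and the stages overlapped (log2 fold change -0.36 ± 0.23, SE, with an adjusted p of 0.471 by edgeR). A second on chromosome 10, 963 bp past its start (89540279 to 89540778), had 15.2, 6.08 and 13.8 in OL and 44.1, 32.6, 27.6 and 32.0 in OPC, so the stages did not overlap. Its log2 fold change was -1.31 ± 0.30 (SE, adjusted p = 0.0516 by edgeR, DESeq2 adjusted p = 0.0273). On chromosome 9 the region at 923 bp (79593272 to 79593951) also separated the stages, with 21.7, 12.2 and 24.2 in OL and 36.4, 26.3, 34.8 and 40.4 in OPC (log2 fold change -0.73 ± 0.26, SE, with an adjusted p of 0.126 by edgeR).

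One U2 region, singled out after its values were seen, had no OL read at all. It lies on chromosome 9 (79560515 to 79560626), 487 bp past the start, with 0 reads in each OL library and 9, 9, 15 and 9 in OPC replicates 1 to 4. With a floor of 3 counts over the OL group, its reads per 1000000 tags were at least 4.68-fold lower in OL than in OPC. It did not meet the filter of the main test.

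Of the 5 tested U1 regions 0 passed by edgeR or DESeq2, and 3 were lower in OL at an unadjusted edgeR p below 0.05. DESeq2 gave no adjusted p for the U1 region 848 bp past its start. The region 1198 bp past its gene start on chromosome 2 (198620603 to 198621496) had 42.5, 24.3 and 44.9 normalised reads in OL replicates 1, 2 and 4 and 72.0, 50.7, 66.9 and 64.5 in OPC replicates 1 to 4. The stages did not overlap, at a log2 fold change of -0.67 ± 0.21 (SE, adjusted p = 0.107 by edgeR). The region at 802 bp (198528493 to 198529116) had 23.3, 18.2 and 17.3 in OL and 49.5, 40.7, 37.5 and 34.8 in OPC. It too separated the stages and came nearest to the threshold among U1 regions (log2 fold change -0.93 ± 0.23, SE, with an adjusted p of 0.0668 by edgeR).

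The U1 region farthest from an annotated start, at 9185 bp (198632649 to 198633240), was called in 5 of the 7 libraries, more than any other snRNA region. Its normalised reads were 26.5, 12.2 and 38.0 in OL replicates 1, 2 and 4 and 44.1, 48.9, 45.5 and 38.7 in OPC replicates 1 to 4. The highest OL library came within 1 normalised read of the lowest OPC library (log2 fold change -0.70 ± 0.24, SE, with an adjusted p of 0.125 by edgeR). The second U5 region by level, on chromosome 8 (70697697 to 70698004, 945 bp past the start), had 11.2, 24.3 and 17.3 in OL and 20.1, 14.5, 18.7 and 20.8 in OPC. Its stages overlapped and its log2 fold change was -0.41 ± 0.31 (SE, adjusted p = 0.533 by edgeR).

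U6 regions varied among themselves and did not pass. The dense region on chromosome 4, 1166 bp past the start, held 67, 32 and 37 raw reads in OL replicates 1, 2 and 4 and 99, 94, 66 and 79 in OPC replicates 1 to 4. These reads followed depth less than elsewhere, and normalised values spread over 53.8, 195 and 128 in OL, against 76.6, 85.1, 58.9 and 44.3 in OPC (log2 fold change 0.77 ± 0.40, SE, with an adjusted p of 0.283 by edgeR). The region on chromosome 5 (102142196 to 102142267, 825 bp past the start) had 18.5, 6.08 and 6.90 in OL and 10.1, 10.9, 21.4 and 10.1 in OPC. Its stages overlapped widely (log2 fold change 0.20 ± 0.43, SE, with an adjusted p of 0.859 by edgeR).

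The remaining U6 regions were too low for the main test. The region 8206 bp past a start on chromosome 4 (151448782 to 151448870) had 9.63, 12.2 and 6.90 normalised reads in OL replicates 1, 2 and 4 and 3.10, 3.62, 4.46 and 5.61 in OPC replicates 1 to 4, from at most 12 raw reads in any library. All OL values stood above all OPC values there, at a single call, in OPC replicate 4. On chromosome X (107514536 to 107514634, 939 bp past the start, singled out after its values were seen) 11 of the 13 reads came from OL replicate 1, the library of its single call, with 0 and 1 in the other OL libraries and 1, 0, 0 and 0 in OPC replicates 1 to 4.

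**Figure D5:**
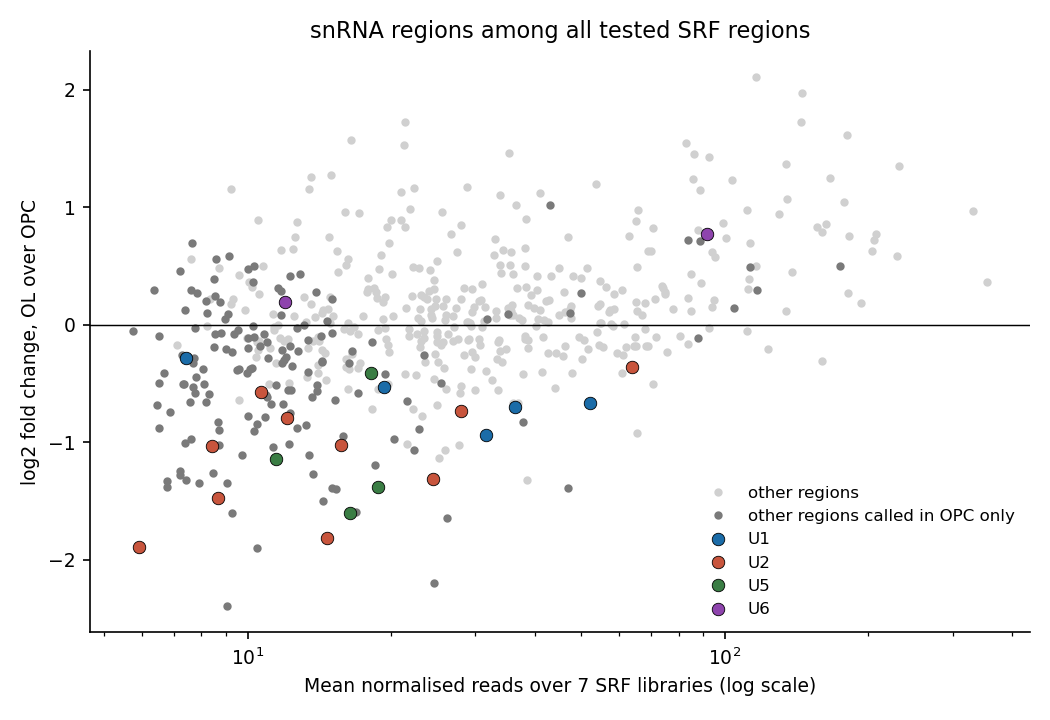
Log2 fold change of OL over OPC against mean normalised reads (log axis) for the 557 tested regions, with U1, U2, U5 and U6 regions coloured, other regions called in OPC only in dark grey and all others in light grey. The 19 coloured points of U1, U2 and U5 lie below 0, the 2 of U6 above it.

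SRF regions also lay within 10000 bp of the starts of some protein genes of snRNA production and the snRNPs. A list of 53 names for snRNA transcription and processing had a region at 4 genes, and a list of 50 names for snRNP proteins had one at 5. Such regions lay at 554 protein-coding genes in all, and no share over all genes was worked out. Of the listed genes, Snapc3, Lsm3 and Prpf4 had their region called in 1 library each. At these 9 genes 7 regions entered the test, and 0 passed by edgeR or DESeq2 in either direction, with 0 at an unadjusted edgeR p below 0.05. DESeq2 gave no adjusted p at Snapc3 and Sf3b2. With 1.8% lower and 0.359% higher among all tested regions, 0 of 7 cannot be told from the background. Maf1, a repressor of RNA polymerase III, was called in all 7 libraries, with 124 ± 19.4 normalised reads in OL (SD, n = 3) and 102 ± 11.5 in OPC (SD, n = 4). Its log2 fold change was 0.30 ± 0.20 (SE, adjusted p = 0.451 by edgeR).

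Ints9, a subunit of the Integrator complex that cuts snRNA precursors, was called in 6 libraries with 107 ± 29.2 in OL and 115 ± 9.70 in OPC (log2 fold change -0.06 ± 0.22, SE, with an adjusted p of 0.937 by edgeR). Hexim1, an inhibitor of the P-TEFb kinase, had 10.7 ± 1.31 in OL and 15.8 ± 6.56 in OPC (log2 fold change -0.61 ± 0.44, SE, with an adjusted p of 0.504 by edgeR). Ddx23, a helicase of the U5 snRNP, was called in 6 libraries with 88.5 ± 15.3 in OL and 82.6 ± 1.55 in OPC (log2 fold change 0.12 ± 0.18, SE, with an adjusted p of 0.788 by edgeR). Of the U2 snRNP proteins, Sf3a3 had 33.7 ± 9.27 in OL and 24.4 ± 7.03 in OPC and Sf3b2 had 9.56 ± 9.15 and 10.4 ± 3.95 in the same order. Unlike the snRNA regions, 4 of these 6 regions were centred within 200 bp upstream of the start, at Hexim1, Ints9, Ddx23 and Sf3b2.

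The promoter of Ddx23 is shown because its SRF region, centred 50 bp upstream of the start, was called in 6 libraries, the most among the listed genes whose promoter the RefSeq table holds. RefSeq gives 250 bp before to 50 bp after its start in build GRCr8 (chr7:131693828-131694127, minus strand, printed 5′ to 3′ along the gene), while the SRF region is placed in Rnor_6.0. Capitals would mark a CArG box, the known SRF element, and this window has none.
Ddx23 promoter: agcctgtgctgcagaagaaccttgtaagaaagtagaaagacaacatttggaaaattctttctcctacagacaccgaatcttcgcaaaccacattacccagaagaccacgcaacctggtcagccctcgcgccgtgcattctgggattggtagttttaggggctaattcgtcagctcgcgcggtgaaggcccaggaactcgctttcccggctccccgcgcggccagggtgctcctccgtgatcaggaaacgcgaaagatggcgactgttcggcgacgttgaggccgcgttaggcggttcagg
A CArG box, searched by its consensus on both strands, was found in 0 of the windows of the 6 listed genes with an SRF region that the table holds and in 1.64% of all 33469 promoters. No match says only that the consensus is not in these windows. With 6 windows, 0 cannot be told from the share over all promoters. The SRF region of Sf3a3 was centred at -6035 bp, outside the window searched.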

How the data were processed

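Per the submitters' processing notes, Trim Galore, BWA, MACS2, HOMER and deepTools were used with build Rnor_6.0; how reads with several matches were handled is not given in the sources used here. MACS 2.2.7.1 was run by the authors on single libraries with their inputs as control (q-value limit 0.05, all duplicates kept), per the file headers. The deposited peak tables give pileup signal, fold enrichment ratio and −log10 p and q, used only within a library. The deposited counts, raw reads per consensus region from featureCounts 2.0.1 per the file headers, were not normalised. Gene names and distances are those of the deposited HOMER table.

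Gene strand was worked out from the deposited distances, where several peak centres of a gene fitted 1 start on 1 strand only (13 of 20 genes, 25 of 32 regions). Genes with few or closely placed peak centres could therefore stay unresolved. Counts were fitted with edgeR 4.0.16 (R 4.3.3, TMM, quasi-likelihood) and, as an alternative, DESeq2 1.42.0. Normalised reads are counts over a library's TMM-scaled size, itself divided by the mean size. Tested on simulated data for OL against OPC (523 regions tested), the fit passed 10 of 60 regions changed 1.5-fold, 34 of 63 changed 2-fold, 57 of 63 changed 4-fold and 4 of 337 unchanged ones.

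Per the labels' protocols each preparation was divided between the stages. Replicate numbers 1, 2 and 4 were therefore taken as pairs in the fit with a block, but not in the main fit. Deviations from group means of same-numbered libraries correlated at 0.085, 0.246 and 0.165. Those of OL replicate 1 and OPC replicate 4 correlated at 0.248, so the labels and not the correlations give the pairing. The OL library with number 4 in its title carries another number in its deposited file, which would pair it with OPC replicate 3. Deviations of that pair correlated at 0.066, and both numberings were tried. Values per library are given for snRNA regions that passed, for the 3 with the most reads per gene name and for those called in at least 5 libraries, and for listed protein genes called in at least 2. The members and gene lists were chosen with earlier results of these data known. Promoter sequences are from RefSeq (GRCr8), matched by symbol for 6 of 9 listed genes with a region.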

Additional observations from a re-analysis of the deposited data

Results flagged for a closer look

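At the U6 region on chromosome 5 (825 bp past its start), OPC replicate 3 stood apart from the other OPC libraries, with 21.4 normalised reads, against 10.1, 10.9 and 10.1 in OPC replicates 1, 2 and 4. The gap to the nearest library was 0.929 of the group's range, above Dixon's critical value for 4 samples. It was the single one of 23 groups of values examined in this way, where chance gives about 1 in 20, and OPC replicate 3 is also the library in which that region was called.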

How the results depend on the processing

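The number of snRNA regions lower in OL was 3 in the main edgeR test. It was 0 with libraries scaled to all tags and 0 without both shallow OL libraries, and 5 with no filter on low counts (U2 and U5 regions; 14 of all 848 fell) and 5 when only regions called in at least 2 libraries were fitted (18 of all 430 fell). Leaving out 1 library at a time gave 0 to 3. The number higher in OL was 0, but 1 with no filter (U6 on chromosome X) and 0 to 1 with 1 library left out, the 1 being U6 on chromosome 4 without OL replicate 1. With replicate numbers as a block, 0 fell by the numbers of the titles and 0 by those of the file names, and the median log2 fold change of the tested snRNA regions was -0.94 and -0.77, beside -0.79 without the block. That median was -1.16 scaled to all tags, where the median of all regions was -0.35, and -0.97 to -0.70 with 1 library left out. The difference in reads over all 32 regions, OL minus OPC, was -32.5 per 1000000 tags and -12.4 per 1000 region reads. Per 1000000 tags it was -16.6 without OPC replicate 4 and -45.3 without OPC replicate 2. Calls in at least 2 libraries held at 15 regions, but at 9 with a −log10 q of at least 5 and at 9 with an overlap of 50%. They held at 5 without the peaks of OPC replicate 4, a setting added after the data were seen. The other regions were not counted at these settings. For these changes the cause was not tested. Signs turned round for regions that did not pass. With 1 library left out, log2 fold changes ran from -0.56 to 0.10 at U5 on chromosome 8 (945 bp), from -0.79 to 0.18 at U1 on chromosome 6, from -0.92 to 0.52 at U6 on chromosome 5, from -0.15 to 0.11 at Ints9 and from -0.56 to 0.19 at Sf3b2. Without both shallow OL libraries they were -0.29 at U6 on chromosome 4, 0.083 at Ints9, -0.0048 at Sf3a3 and 0.033 at Sf3b2. Scaled to all tags they were -0.27 at U6 on chromosome 5, -0.091 at Maf1 and -0.25 at Ddx23, and with regions called in at least 2 libraries 0.037 at Ints9. With 1 to 4 reads in OL replicates 2 and 4 at the regions that fell, depth limits the OL side of each comparison.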
